A study of Mus musculus with 12 samples.

Results

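The genes described here are 8 transcription factor genes that specify and maintain myeloid cells, namely Spi1, Runx1, Ikzf1, Irf8, Irf5, Cebpa, Cebpb and Bhlhe41. They were chosen by their gene symbol, are 8 of the 45906 genes counted, and all 8 passed the filter on low counts that left 20155 genes for testing. Their transcripts were measured by poly-A RNA sequencing of whole spinal cord from 12 mice at 7 months of age, on a C57BL/6 background. Each genotype was represented by 3 libraries: Plekhg5+/+ (wild type), Plekhg5-/- (without functional Plekhg5), Plekhg5+/+ SOD1-G93A and Plekhg5-/- SOD1-G93A. SOD1-G93A is a transgene for human SOD1 carrying an amyotrophic lateral sclerosis mutation, here in its "low copy" line with slow disease progression, and Plekhg5 encodes a guanine nucleotide exchange factor involved in autophagy of synaptic vesicles and in Sod1 secretion. The loss of Plekhg5 was not restricted to a cell type, and mice of either sex were used without regard to sex. Transcripts of Y-linked genes were found in 3, 2, 2 and 1 of the 3 libraries of these genotypes, in that order.

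Microglia are the resident macrophages of the spinal cord. PU.1, the product of Spi1, is the lineage-determining factor of macrophages and microglia and opens their enhancers together with RUNX1, C/EBP and IRF factors. IRF8, a partner of PU.1, and IRF5 are known for driving reactive states of microglia, C/EBP-alpha and C/EBP-beta for myeloid differentiation and inflammatory gene expression, Ikaros (Ikzf1) for the regulation of blood cell lineages, and BHLHE41, a repressor, as part of the microglial transcriptional signature and of the circadian clock. Because whole tissue was sequenced, a lower number of cells of a type and less RNA per cell cannot be told apart in any of the values below.

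Promoter sequences (250 bases before to 50 bases after a transcription start) were found in the RefSeq table on GRCm38.p6 for 7 of the 8 factors, with 10 promoters in all, and none was found for Spi1. Of these, 4 are printed 5′ to 3′ on the strand of the gene, because they hold a searched motif in genes that rose together in SOD1-G93A cords (Irf8, Ikzf1), in a gene without a detected change there (Bhlhe41), or for the factor PU.1 itself (Runx1). Capitals mark the matches.
Irf8, chr8:120736108-120736407, plus strand: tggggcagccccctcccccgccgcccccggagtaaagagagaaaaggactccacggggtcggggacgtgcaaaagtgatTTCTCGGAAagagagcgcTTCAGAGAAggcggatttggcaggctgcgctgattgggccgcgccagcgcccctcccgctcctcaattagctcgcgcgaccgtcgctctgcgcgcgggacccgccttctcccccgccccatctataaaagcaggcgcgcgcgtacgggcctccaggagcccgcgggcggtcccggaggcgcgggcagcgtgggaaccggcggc
Ikzf1, chr11:11689927-11690226, plus strand: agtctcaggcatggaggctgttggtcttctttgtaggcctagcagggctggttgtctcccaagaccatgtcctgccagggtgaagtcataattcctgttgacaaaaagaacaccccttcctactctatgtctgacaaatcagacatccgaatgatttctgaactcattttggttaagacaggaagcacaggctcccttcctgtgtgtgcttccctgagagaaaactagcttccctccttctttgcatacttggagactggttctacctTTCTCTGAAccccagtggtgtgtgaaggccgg
Runx1, chr16:92697280-92697579, minus strand: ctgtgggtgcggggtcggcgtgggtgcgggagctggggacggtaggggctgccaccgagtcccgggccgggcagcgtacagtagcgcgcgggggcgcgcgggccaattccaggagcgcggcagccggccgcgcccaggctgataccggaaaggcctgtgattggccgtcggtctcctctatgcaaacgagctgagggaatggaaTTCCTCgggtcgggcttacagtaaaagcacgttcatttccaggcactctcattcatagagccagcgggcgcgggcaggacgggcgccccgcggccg
Bhlhe41, chr6:145865371-145865670, minus strand: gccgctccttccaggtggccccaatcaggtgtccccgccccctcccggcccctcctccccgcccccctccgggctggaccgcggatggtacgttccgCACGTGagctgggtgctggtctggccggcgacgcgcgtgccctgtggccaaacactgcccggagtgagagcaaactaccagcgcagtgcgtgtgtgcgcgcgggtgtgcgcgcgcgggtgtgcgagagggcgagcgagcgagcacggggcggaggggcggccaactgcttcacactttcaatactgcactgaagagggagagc

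The capitals in the Irf8 promoter are both matches to the GAS element TTCNNNGAA, bound by STAT factors, at bases -171 to -163 and -153 to -145 from the transcription start. The printed Ikzf1 promoter holds 1 such match, at bases 19 to 27 after the start. The other promoters of Irf8 and Ikzf1, and the promoter of Irf5, held no match to any of the searched motifs. GAS elements were thus present in 2 of the 10 promoters, and in 8.3% of the 32851 promoters of the table. The core GAGGAA of PU.1 and other ETS factors, here on the opposite strand at bases -46 to -41 of the promoter of Runx1, was found in 1 of the 10 promoters and in 28.3% of all. The E-box CACGTG, the site of BHLHE factors, begins at base -153 of Bhlhe41 and at base -71 of the other promoter of Runx1, thus in 2 of 10 and in 7.15% of all promoters. That other promoter of Runx1 also held 2 matches to the RUNX site TGTGGT, which was found in 1 of 10 and in 16.8% of all. The IRF element GAAANNGAA, in 8.56% of all promoters, and the C/EBP half-site pair TTGCNNAA, in 10.8% of all, were found in 0 of the 10. Both strands were searched, no 2 matches overlapped, and a match of letters is not evidence of binding.

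Each library held between 30415643 and 38743628 counts. Plekhg5 transcripts were at 22.9 ± 3.08 CPM (counts scaled to a common library size with TMM factors; SD, n = 3) in Plekhg5+/+ and at 3.98 ± 0.712 CPM in Plekhg5-/- cords, and at 22.4 ± 2.19 and 4.26 ± 0.413 CPM in Plekhg5+/+ SOD1-G93A and Plekhg5-/- SOD1-G93A cords. Human SOD1 was at 4421 to 5638 CPM in the 6 SOD1-G93A libraries and at 0.153 to 5.47 CPM in the other 6, so that both genotype labels held. The 13 pan-microglial genes added up to 580.0 to 687.6 CPM in Plekhg5+/+, 652.0 to 882.0 in Plekhg5-/-, 1175 to 2323 in Plekhg5+/+ SOD1-G93A and 847.1 to 962.9 CPM in Plekhg5-/- SOD1-G93A cords. The highest of these sums, 2323 CPM, belonged to the first Plekhg5+/+ SOD1-G93A library, which also had the highest level of its genotype for 8 of the 8 factors. The log2 fold changes of the 8 factors that include this library are therefore also given without it. Those of other genes are given with it only.

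To compare levels between the factors, counts were divided by exon length (RPKM, CPM per kilobase). In Plekhg5+/+ cords, Bhlhe41 had the highest level with 14.2 ± 0.959 RPKM, followed by Cebpa with 4.26 ± 0.701 and Cebpb with 2.91 ± 0.338 RPKM (SD, n = 3). Spi1 was at 1.84 ± 0.206, Irf8 at 1.52 ± 0.211, Irf5 at 1.36 ± 0.237, Ikzf1 at 0.990 ± 0.154 and Runx1 at 0.235 ± 0.0494 RPKM. The libraries of Spi1 and Irf8 and those of Irf8 and Irf5 overlapped, whereas those of all other neighbours in this order did not. Within each library Irf8 was above Irf5, with 1.72 and 1.62, 1.55 and 1.29, and 1.30 and 1.16 RPKM. In the first library Irf8 was also slightly above Spi1, which was at 1.70 RPKM. In Plekhg5+/+ SOD1-G93A cords, Bhlhe41 remained highest with 14.6 ± 0.614 and Cebpa followed with 6.58 ± 2.01 RPKM, but Irf8 with 4.76 ± 2.36 and Spi1 with 4.45 ± 1.66 RPKM had higher means than Cebpb with 3.03 ± 0.478 RPKM. Within each of these libraries, Irf8 (7.49, 3.50 and 3.31 RPKM) and Spi1 (6.35, 3.30 and 3.71) were above Cebpb (3.58, 2.74 and 2.77). The order of Irf8 and Spi1 differed between the libraries.

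The first question was how the SOD1-G93A transgene alone affects these factors. In Plekhg5+/+ SOD1-G93A compared with Plekhg5+/+ cords, Spi1, Irf8, Irf5 and Ikzf1 rose by 1.94-fold to 3.12-fold, no factor fell, and Cebpb and Bhlhe41 stayed within 1.04-fold. By edgeR's quasi-likelihood test with Benjamini-Hochberg adjustment, 4 of the 8 factors passed the threshold of 0.05, all higher, where 2.47% of the 20155 genes tested passed it and 2.09% were higher. For 5 of the 8, all 3 transgenic libraries were above all 3 wild-type libraries, as for 11.6% of all genes. The median log2 fold change over the 8 factors was 1.04 and over all genes -0.00.

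**Figure D1:**
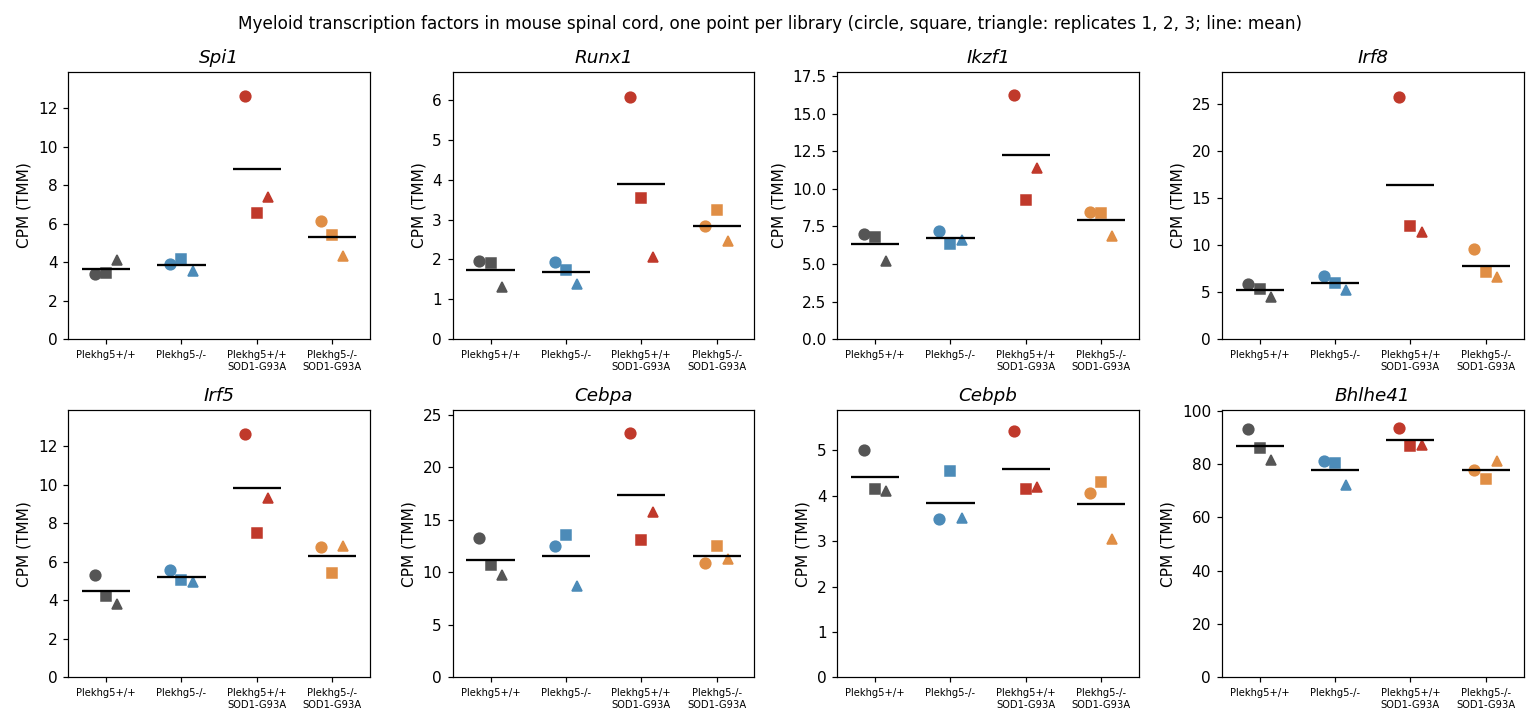
Transcript levels in CPM (vertical axes, linear and starting at 0) of the 8 factors in each of the 12 libraries by genotype (horizontal axes), with lines for the means of 3 libraries. For Spi1, Runx1, Ikzf1, Irf8 and Irf5 all Plekhg5+/+ SOD1-G93A points lie above all Plekhg5+/+ points, with the first library (circle) highest, at 25.7 CPM for Irf8.

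Spi1, the gene of PU.1 (chromosome 2, 91082368 to 91115759), was at 3.39, 3.46 and 4.13 CPM in the Plekhg5+/+ libraries and at 12.6, 6.57 and 7.38 CPM in the Plekhg5+/+ SOD1-G93A libraries. All transgenic libraries were above the wild-type libraries, and the first stood apart. The log2 fold change was 1.27 ± 0.22 (SE), with an adjusted p of 0.0158 by edgeR.

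Irf8 (chromosome 8, 120736358 to 120756694) changed most, from 5.92, 5.32 and 4.47 CPM in Plekhg5+/+ to 25.7, 12.0 and 11.4 CPM in Plekhg5+/+ SOD1-G93A cords. The groups did not overlap, and the lowest transgenic library was well above the highest wild-type library. The log2 fold change was 1.64 ± 0.28, with an adjusted p of 0.0165 by edgeR. Irf5 (chromosome 6, 29526130 to 29541869), the other interferon regulatory factor, was at 5.34, 4.25 and 3.83 CPM in Plekhg5+/+ and at 12.6, 7.49 and 9.33 CPM in Plekhg5+/+ SOD1-G93A cords. Its groups were likewise separate, with a log2 fold change of 1.13 ± 0.18 and an adjusted p of 0.0127 by edgeR. Tnpo3 overlaps with Irf5 on the other strand, as do Gm11999 with Ikzf1 and Gm30281 with Runx1, but reads were counted by strand.

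Ikzf1 (chromosome 11, 11684962 to 11772930), a zinc finger factor of the blood cell lineages, was at 7.02, 6.77 and 5.21 CPM in Plekhg5+/+ and at 16.2, 9.24 and 11.4 CPM in Plekhg5+/+ SOD1-G93A cords. The groups did not overlap. The log2 fold change was 0.96 ± 0.18, with an adjusted p of 0.0206 by edgeR.

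Runx1 (chromosome 16, 92601466 to 92826074), with the lowest level per length of the 8 factors in each genotype, was at 1.97, 1.92 and 1.32 CPM in Plekhg5+/+ and at 6.09, 3.53 and 2.07 CPM in Plekhg5+/+ SOD1-G93A cords. The transgenic libraries were above the wild-type libraries but covered a wide range, and the lowest was close to the highest wild-type library. The log2 fold change of 1.16 ± 0.32 did not pass the test (adjusted p of 0.0734 by edgeR). Without the first Plekhg5+/+ SOD1-G93A library it was 0.68. DESeq2 without a prior called Runx1 with an adjusted p of 0.0166 and with a prior with 0.0128, and so did edgeR without the third Plekhg5+/+ SOD1-G93A library (0.0101).

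Cebpa (chromosome 7, 35119293 to 35121928), required for the differentiation of myeloid progenitors, was at 13.3, 10.7 and 9.71 CPM in Plekhg5+/+ and at 23.3, 13.04 and 15.7 CPM in Plekhg5+/+ SOD1-G93A cords. These groups overlapped slightly, and the log2 fold change of 0.63 ± 0.21 did not pass the test (adjusted p of 0.131 by edgeR), although DESeq2 with a prior called it with an adjusted p of 0.0486. Without the first Plekhg5+/+ SOD1-G93A library the value was 0.36. Cebpb (chromosome 2, 167688915 to 167690432), its inflammation-linked relative, was at 5.02, 4.15 and 4.10 CPM in Plekhg5+/+ and at 5.44, 4.16 and 4.20 CPM in Plekhg5+/+ SOD1-G93A cords. Its libraries overlapped almost entirely, and the log2 fold change was 0.05 ± 0.17, with a 95% interval from -0.31 to 0.42, and -0.08 without that library.

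Bhlhe41 (chromosome 6, 145858243 to 145865420) was at 93.2, 85.9 and 81.6 CPM in Plekhg5+/+ and at 93.5, 86.7 and 87.3 CPM in Plekhg5+/+ SOD1-G93A cords. The groups overlapped within a narrow range. The log2 fold change was 0.04 ± 0.07 (0.00 without the first Plekhg5+/+ SOD1-G93A library), with a 95% interval from -0.11 to 0.19, whereas that of Ikzf1, with the smallest change among the 4 factors that rose, began at 0.56.

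Without the first Plekhg5+/+ SOD1-G93A library, all 4 calls held at smaller log2 fold changes, with 0.93 for Spi1, 1.16 for Irf8, 0.91 for Irf5 and 0.70 for Ikzf1 and a highest adjusted p of 0.0497 by edgeR. The calls were lost, with 0 of 8 factors called, when only the genotypes compared were fitted (adjusted p between 0.0758 and 0.0974 for these 4 factors), without the first Plekhg5+/+ library (0.0661 to 0.0739) and without the second (0.0948 to 0.0987), with log2 fold changes between 0.94 and 1.74, and the call of Ikzf1 was also lost without the third (0.0513).

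The second question was whether the loss of Plekhg5 changes these factors in SOD1-G93A cords. In Plekhg5-/- SOD1-G93A compared with Plekhg5+/+ SOD1-G93A cords, all 8 factors had lower fitted levels, but by edgeR 0 of 8 passed the test, with adjusted p between 0.402 and 0.656, where 0.0347% of all genes passed it. At an unadjusted p under 0.05 there were 6 of the 8 factors and 1741 of all genes. For 6 of the 8 factors, all but Runx1 and Cebpb, the 3 Plekhg5-/- SOD1-G93A libraries were below all Plekhg5+/+ SOD1-G93A libraries, as for 10.0% of all genes. The median log2 fold change was -0.61 over the factors and -0.01 over all genes. DESeq2 called 1 factor, Irf8, with an adjusted p of 0.0263 without and 0.00668 with a prior. This comparison shares the Plekhg5+/+ SOD1-G93A libraries with the first, including the library with the highest values, so the values of both comparisons are not independent.

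The levels of Irf8 were 9.56, 7.10 and 6.58 CPM in Plekhg5-/- SOD1-G93A cords, all below the lowest Plekhg5+/+ SOD1-G93A library. The log2 fold change was -1.08 ± 0.27, with an adjusted p of 0.402 by edgeR, and -0.60 without the first Plekhg5+/+ SOD1-G93A library. Spi1 was at 6.14, 5.40 and 4.32 CPM, likewise below, with a log2 fold change of -0.75 ± 0.22, an adjusted p of 0.415 and -0.40 without that library. The Spi1 levels remained above those of all Plekhg5-/- libraries, whereas those of Irf8 overlapped with them.

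Irf5 was at 6.75, 5.40 and 6.81 CPM and Ikzf1 at 8.48, 8.38 and 6.86 CPM in Plekhg5-/- SOD1-G93A cords, both with a log2 fold change of about the same size (-0.63 ± 0.18 and -0.64 ± 0.18). Without the first Plekhg5+/+ SOD1-G93A library these values were -0.41 and -0.38. Cebpa was at 10.9, 12.5 and 11.2 CPM, which is within the range of the Plekhg5+/+ libraries, and its log2 fold change was -0.59 ± 0.21, and -0.32 without that library. For these 3 genes too, the Plekhg5-/- SOD1-G93A libraries did not overlap with the Plekhg5+/+ SOD1-G93A libraries.

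Runx1 was at 2.84, 3.25 and 2.46 CPM in Plekhg5-/- SOD1-G93A cords, within the wide range of the Plekhg5+/+ SOD1-G93A libraries. Its log2 fold change was -0.45 ± 0.30 and became 0.03 without the first of those libraries. The second Plekhg5-/- SOD1-G93A library, with the highest Runx1 level of its genotype, also held 17.2 CPM of 5 nociceptor marker transcripts, against 0.527 to 1.71 CPM in the other 11 libraries. Without this library the log2 fold change of Runx1 was -0.56. RUNX1 is also known as a factor of nociceptive sensory neurons, and the part of such tissue in the Runx1 level was not tested.

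Cebpb was at 4.07, 4.31 and 3.06 CPM and Bhlhe41 at 77.7, 74.6 and 81.2 CPM in Plekhg5-/- SOD1-G93A cords. The libraries of Cebpb overlapped with those of Plekhg5+/+ SOD1-G93A cords and its log2 fold change was -0.27 ± 0.17, and -0.14 without the first of these. Those of Bhlhe41 did not overlap, with a log2 fold change of -0.20 ± 0.07 (-0.16 without that library) and a 95% interval from -0.34 to -0.05.

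**Figure D2:**
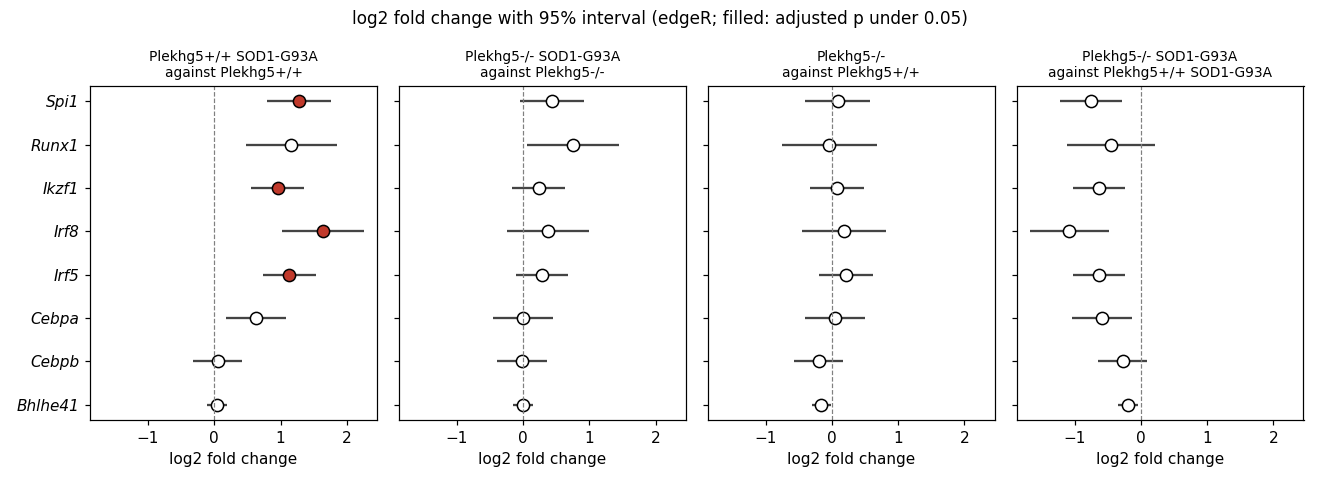
Log2 fold changes (horizontal axes) of the 8 factors in 4 comparisons between genotypes, with 95% intervals from edgeR, filled where the adjusted p was under 0.05. Filled points appear only in the leftmost panel, for Spi1, Ikzf1, Irf8 and Irf5, and all 8 points of the rightmost panel lie below 0.

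The loss of Plekhg5 without the transgene left all 8 factors without a call. In Plekhg5-/- compared with Plekhg5+/+ cords, 0 of 8 passed edgeR's test (adjusted p between 0.929 and 1.00), where 0.0298% of all genes passed. At an unadjusted p under 0.05 there was 1 factor, as were 1073 of all genes, and DESeq2 called 0 of the 8. That factor was Bhlhe41, at 81.1, 80.5 and 72.0 CPM in Plekhg5-/- cords, just below the Plekhg5+/+ libraries, with a log2 fold change of -0.16 ± 0.07. Spi1 was at 3.89, 4.19 and 3.57 CPM, Irf8 at 6.73, 5.94 and 5.17 CPM and Irf5 at 5.59, 5.03 and 4.95 CPM in these cords, overlapping with the Plekhg5+/+ libraries. The 95% intervals of their log2 fold changes reached from -0.41 to 0.58, from -0.45 to 0.81 and from -0.19 to 0.62. Ikzf1 was at 7.17, 6.33 and 6.59 CPM, Runx1 at 1.93, 1.75 and 1.39 CPM, Cebpa at 12.6, 13.6 and 8.68 CPM and Cebpb at 3.48, 4.55 and 3.50 CPM.

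The transgene was also compared on the Plekhg5-/- background. In Plekhg5-/- SOD1-G93A compared with Plekhg5-/- cords, 0 of 8 factors passed edgeR's test (adjusted p between 0.892 and 0.999), where 0.00496% of all genes passed, and DESeq2 called 0 of the 8. Only Runx1, with a log2 fold change of 0.75 ± 0.32, was under an unadjusted p of 0.05, as were 1084 of all genes. The libraries of Runx1 and of Spi1, with a log2 fold change of 0.44 ± 0.22, did not overlap between these genotypes. The share of all genes without overlap was not computed here, and on the Plekhg5+/+ background 11.6% of all genes had all transgenic libraries above. The values for Irf8, Irf5 and Ikzf1 were 0.38 ± 0.28, 0.28 ± 0.18 and 0.24 ± 0.18, beside 1.64, 1.13 and 0.96 on the Plekhg5+/+ background. For Cebpa, Cebpb and Bhlhe41 they were -0.01 ± 0.21, -0.02 ± 0.17 and -0.00 ± 0.07.

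The difference between the backgrounds was tested as the interaction of Plekhg5 loss and SOD1-G93A. All 8 interaction terms were negative, and by edgeR 0 of 8 passed the test, as did 0% of all genes. At an unadjusted p under 0.05 there were 4 of the 8 factors and 1824 of all genes. DESeq2 called 0 of the 8 factors, and 98 genes without and 111 genes with a prior. The term was -1.27 ± 0.40 for Irf8, with a 95% interval from -2.13 to -0.40 and an adjusted p of 0.407 by edgeR. It was -0.85 ± 0.26 for Irf5, -0.83 ± 0.31 for Spi1 and -0.72 ± 0.26 for Ikzf1, with adjusted p of 0.406, 0.465 and 0.458. For Cebpa, Runx1, Cebpb and Bhlhe41 the terms were -0.63 ± 0.29, -0.41 ± 0.45, -0.07 ± 0.24 and -0.04 ± 0.10. Without the first Plekhg5+/+ SOD1-G93A library the terms were -0.78 for Irf8, -0.63 for Irf5, -0.49 for Spi1, -0.47 for Ikzf1 and -0.36 for Cebpa. They were then 0.07 for Runx1, 0.07 for Cebpb and -0.00 for Bhlhe41, so that not all 8 were negative.

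All 13 pan-microglial genes rose in Plekhg5+/+ SOD1-G93A compared with Plekhg5+/+ cords, as did 6 of 10 homeostatic (3 without the first Plekhg5+/+ SOD1-G93A library) and 12 of 15 disease-associated microglial genes, so the factors were also set against the summed level of the 13 genes in each library. As for the factors, 0 genes of these 3 lists were called when only the genotypes compared were fitted or without the first or the second Plekhg5+/+ library. On this scale (log2 CPM of a factor minus log2 of the summed CPM), Spi1 was at -7.44 ± 0.14 in Plekhg5+/+ and at -7.46 ± 0.06 in Plekhg5+/+ SOD1-G93A cords (SD, n = 3). Its difference of -0.02 was smaller than the spread between libraries, as was that of Irf5 with -0.12. Against the geometric mean of the 13 genes in place of their sum, the difference of Spi1 was -0.15, larger than its pooled SD of 0.11. Irf8 was the only factor with a higher mean relative level, by 0.31, and its libraries overlapped with the wild-type libraries (two-sided exact permutation test, p = 0.2). Ikzf1 and Runx1 had differences of -0.30 and -0.20, also with overlap.

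The relative levels of Cebpa, Cebpb and Bhlhe41 were lower in all Plekhg5+/+ SOD1-G93A libraries than in all Plekhg5+/+ libraries, by 0.63, 1.17 and 1.18 on the log2 scale in the means. Without the first Plekhg5+/+ SOD1-G93A library these differences were -0.55, -0.99 and -0.91. By edgeR the CPM of these 3 genes passed no test of a change, and DESeq2 with a prior called Cebpa higher. Their log2 fold changes in CPM were 0.63, 0.05 and 0.04, so the lower relative levels come from the higher pan-microglial sum. Which cells held the transcripts of these 3 genes was not tested, so a relative level is not a level within microglia. The exact permutation p was 0.1 for each of these 3, which is the smallest that 3 against 3 libraries can give, and 0.4 after Benjamini-Hochberg adjustment over 32 tests. In Plekhg5-/- SOD1-G93A compared with Plekhg5+/+ SOD1-G93A cords, the relative level of Spi1 differed by 0.03 and that of Irf8 by -0.26, with overlap. The relative levels of Cebpb and Bhlhe41 were higher by 0.46 and 0.53 in the means and in all libraries (exact permutation p = 0.1, adjusted 0.4). Without the first Plekhg5+/+ SOD1-G93A library they were higher by 0.27 and 0.25. The CPM of both had negative log2 fold changes in this comparison, of -0.27 and -0.20. Their higher relative levels thus come from the lower pan-microglial sum.

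**Figure D3:**
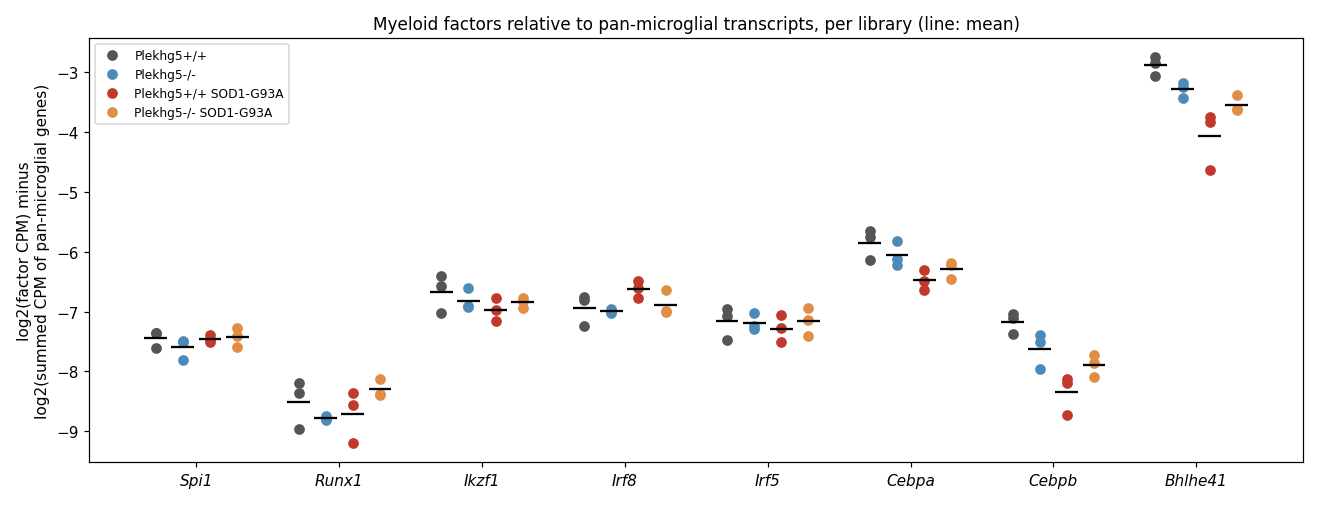
Level of each factor relative to the summed level of 13 pan-microglial genes, as a difference of log2 CPM values (vertical axis), per library and factor (horizontal axis), coloured by genotype with lines for the means. Spi1 has means of -7.44 and -7.46 in Plekhg5+/+ and Plekhg5+/+ SOD1-G93A libraries, while Cebpb and Bhlhe41 are lowest in Plekhg5+/+ SOD1-G93A libraries.

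Over the 12 libraries, which share genotype and tissue composition, log2 CPM of Irf8 and Spi1 followed the pan-microglial sum with Pearson's r of 0.971 and 0.968, and with 0.881 and 0.890 after subtraction of genotype means. For Irf5, Ikzf1, Cebpa and Runx1, r was 0.935, 0.930, 0.856 and 0.844, and 0.696, 0.725, 0.785 and 0.716 after that subtraction. It was 0.426 for Bhlhe41 and 0.413 for Cebpb, and 0.490 and 0.562 after subtraction. Among the factors, the closest pairs were Ikzf1 and Irf8 with 0.965, Spi1 and Irf8 with 0.955 and Irf8 and Irf5 with 0.950. After subtraction of genotype means these pairs had 0.855, 0.805 and 0.780, and Runx1 and Irf8 had 0.838. These correlations describe 12 bulk libraries, and the first Plekhg5+/+ SOD1-G93A library was highest for each factor within its genotype.

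By the same measure over the 12 libraries, the genes with the pattern most like that of Spi1 were Cd52 with r of 0.988, a leukocyte surface glycoprotein, Cd84 with 0.986, a SLAM family receptor, and Traf3ip3 with 0.986. Those closest to Irf8 were Nckap1l with 0.984, a hematopoietic regulator of the actin cytoskeleton, Dbx2 with 0.982 and the lysosomal protease Ctsz with 0.982. For Irf5 they were Pdlim4 with 0.991, the complement component C3 with 0.969 and Gm11787 with 0.969. For Ikzf1 they were Ftl2-ps with 0.971, Irf8 with 0.965 and Ftl1-ps1 with 0.961, of which the ferritin light chain pseudogenes may share reads with near-identical copies. For Runx1 they were Serpinf2 with 0.963, Emp1 with 0.962 and the interferon-induced chemokine Cxcl10 with 0.951. For Cebpa they were Plscr2 with 0.940, Pdpn with 0.939 and the Fc receptor Fcgr3 with 0.936. Spearman's rank correlations of these 3 with Cebpa were 0.937, 0.755 and 0.804.

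Bhlhe41 and Cebpb, with the lowest r with the pan-microglial sum, had the following neighbours. Cebpb was closest to Atf5, a stress-responsive basic leucine zipper factor, with r of 0.833, followed by Gm3650 with 0.813 and Gm29666 with 0.809. Bhlhe41 was closest to 2510039O18Rik with 0.923, Tbc1d10a with 0.912 and the kinase Akt2 with 0.894.

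Relatives of the 8 factors and other transcription factors were examined in fixed lists. In Plekhg5+/+ SOD1-G93A compared with Plekhg5+/+ cords, 2 of 21 other ETS family genes tested rose by edgeR's test, namely Elf4 with a log2 fold change of 1.40 ± 0.26 and Erf with 0.57 ± 0.09, and the median of the family was 0.08. This count was 0 when only the genotypes compared were fitted and without the first or the second Plekhg5+/+ library, and so was the count of the other transcription factors given below. Of the 7 other IRF genes 0 passed the test, with 5 at an unadjusted p under 0.05, 2 called by DESeq2 and a median of 0.53. Among them were Irf7, the main inducer of type I interferon responses, from 2.86 to 10.2 CPM with a log2 fold change of 1.83 ± 0.48 and an adjusted p of 0.0732, Irf1 with 0.59 ± 0.17 and Irf9 with 0.53 ± 0.17. None of 5 RUNX and CBF partner genes, 5 other C/EBP genes, 4 other Ikaros genes, 2 other BHLHE genes and 16 clock genes passed the test in edgeR or DESeq2, and at an unadjusted p under 0.05 in edgeR there were 0, 0, 2, 1 and 1 of them. Those 2 Ikaros genes, Ikzf2 with -0.36 ± 0.13 and Ikzf3 with 0.72 ± 0.33, had opposite signs. Bhlhe40, the closest relative of Bhlhe41, had a log2 fold change of 0.17 ± 0.10, and Cebpd, an acute-phase C/EBP factor, one of 0.64 ± 0.38. Of 43 other transcription factors of microglia and macrophages tested, 1 rose, the stress-induced Atf3, with 1.64 ± 0.38, and without the first Plekhg5+/+ SOD1-G93A library this count was 0.

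Genes that act upstream or downstream of the factors were also taken from fixed lists, some of which share genes such as Csf1r. They also share genes with the pan-microglial list, among them Csf1r, Tyrobp, Cd68, Laptm5, Aif1 and Ctss. Their counts are therefore not independent of the rise of the pan-microglial genes. Of 13 lineage cytokines and receptors tested, 7 rose, including Csf2rb, the common beta chain of the GM-CSF receptor, with a log2 fold change of 1.42 ± 0.31, Csf3r with 1.11 ± 0.21 and Tgfb1 with 1.04 ± 0.20. The median of this list was 0.58. Of 24 known myeloid targets of PU.1, RUNX1 and C/EBP factors, 16 rose and all 24 had positive values, with a median of 1.25 beside -0.00 over all genes. Among them were Cd68, a lysosomal glycoprotein of macrophages, from 6.73 to 34.5 CPM with 2.36 ± 0.30, Cybb, a subunit of the phagocyte NADPH oxidase, with 2.31 ± 0.53, and Lyz2 with 1.70 ± 0.25. Without the first Plekhg5+/+ SOD1-G93A library 6 of the 13 and 11 of the 24 genes rose, and 0 of either list did when only the genotypes compared were fitted or without the first or the second Plekhg5+/+ library.

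Of 9 genes linked to IRF8 and IRF5 in reactive microglia, 5 rose, led by Tlr2 with 1.60 ± 0.24, Aif1, which encodes IBA1, with 1.41 ± 0.26, and the protease Ctss with 1.31 ± 0.24. Of 6 inflammatory genes linked to C/EBP-beta and tested, 1 rose, the chemokine gene Ccl2, from 0.221 to 1.27 CPM with 2.50 ± 0.45. The other 5 of the 11 listed did not pass the filter on low counts, and by edgeR no gene of any of these lists fell. The same alternatives that removed the calls of the factors left 0 called genes in both of these lists.

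In Plekhg5-/- SOD1-G93A compared with Plekhg5+/+ SOD1-G93A cords, 0 genes of any of these lists passed edgeR's test. At an unadjusted p under 0.05 there were 17 of the 24 targets, 5 of the 9 genes linked to IRF8 and IRF5 and 7 of the 13 cytokines and receptors, of which DESeq2 without a prior called 3, 1 and 0. The median log2 fold changes were -0.69 over the 24 targets, -0.60 over the genes linked to IRF8 and IRF5, -0.24 over the cytokines and receptors and -0.01 over all genes. The smallest unadjusted p-values were found for Tlr2 with a log2 fold change of -1.03 ± 0.23, Junb with -0.67 ± 0.16, Laptm5 with -0.79 ± 0.19 and Cd68 with -1.13 ± 0.28, with adjusted p of 0.371 for Tlr2 and 0.402 for the others. Csf1, the growth factor of microglia, had -0.43 ± 0.12 and its receptor Csf1r -0.49 ± 0.15. Spib, the closest relative of Spi1, had -1.26 ± 0.47 at levels of 0.901 and 0.378 CPM.

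**Figure D4:**
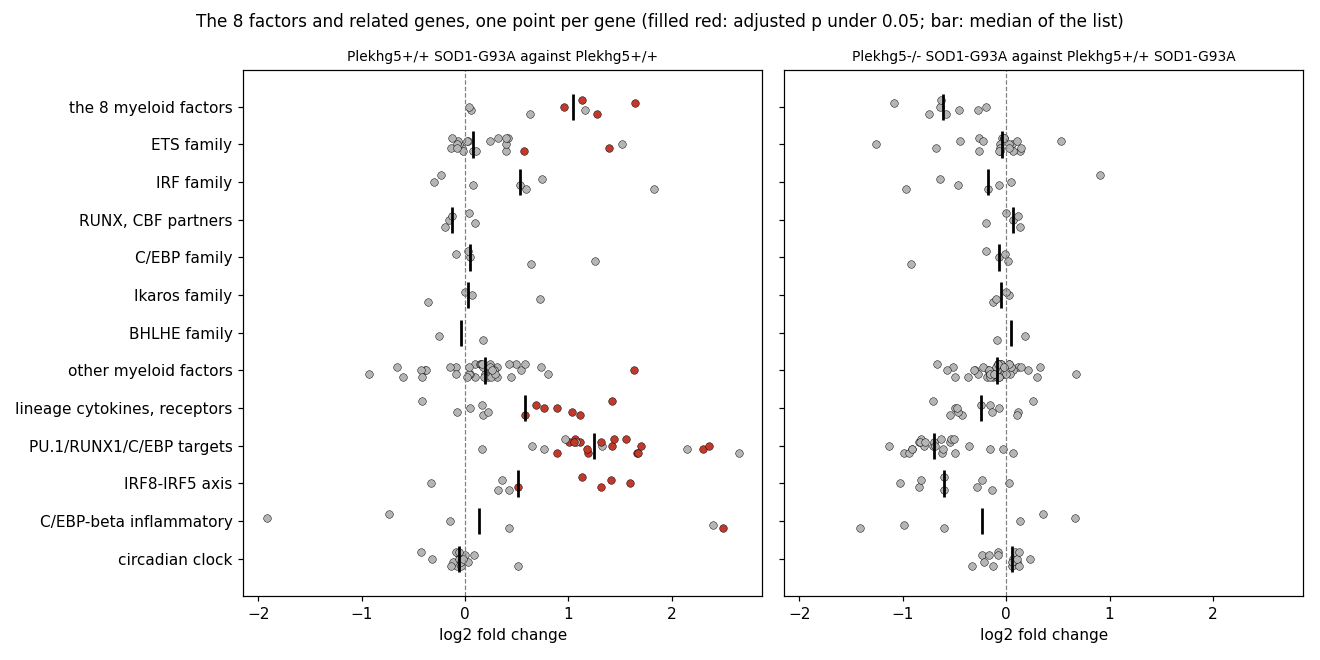
Log2 fold changes (horizontal axis) of the 8 factors and of the genes tested in 12 related lists (rows), for the SOD1-G93A transgene on the left and for Plekhg5 loss in SOD1-G93A cords on the right, 1 point per gene, red where the adjusted p was under 0.05, with bars for list medians. The 16 red points in the row of targets stand out on the left, and the right panel has no red point.

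Other cell types that express these factors were measured by their markers in the same libraries. Of 8 genes of neutrophils and granulocyte precursors, which also express Spi1 and C/EBP factors, 0 passed edgeR's test for the transgene (1 at an unadjusted p under 0.05 and 0 by DESeq2), with a median log2 fold change of 1.81 and summed levels of 14.3 to 70.3 CPM in Plekhg5+/+, 30.6 to 80.2 in Plekhg5-/-, 44.5 to 151 in Plekhg5+/+ SOD1-G93A and 23.0 to 260.0 CPM in Plekhg5-/- SOD1-G93A cords. In the first Plekhg5-/- SOD1-G93A library, with the 260.0 CPM, Spi1, Irf8 and Ikzf1 were the highest and Cebpa the lowest of that genotype. Of 6 monocyte genes 0 rose, with a median of 0.05. Of 8 border macrophage genes 1 (Ms4a7) rose, but only 2 had positive values and the median was -0.27. Of 5 B cell genes 1 rose and all 5 had positive values, with a median of 1.10. Of the 9 T and NK cell genes, 4 passed the filter and 0 rose. The 9 genes added up to 1.45 to 1.83 CPM in Plekhg5+/+ and 1.84 to 1.99 CPM in Plekhg5-/- cords. Their sums were 3.27 to 3.60 CPM in Plekhg5+/+ SOD1-G93A and 2.02 to 6.95 CPM in Plekhg5-/- SOD1-G93A cords. For Plekhg5 loss in SOD1-G93A cords, all 4 genes tested had positive log2 fold changes (median 0.74), and 0 passed edgeR's test. Of 8 astrocyte genes 2 rose with the transgene, Vim with a log2 fold change of 1.31 ± 0.25 and Gfap with 1.23 ± 0.22 (0 when only the genotypes compared were fitted or without the first or the second Plekhg5+/+ library), with summed astrocyte levels of 5952 to 6127 CPM in Plekhg5+/+, 6085 to 7137 in Plekhg5-/-, 7368 to 10777 in Plekhg5+/+ SOD1-G93A and 6940 to 7186 CPM in Plekhg5-/- SOD1-G93A cords. The log2 fold changes of Vim and Gfap for Plekhg5 loss in SOD1-G93A cords were -0.54 ± 0.25 and -0.62 ± 0.22.

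In that last comparison, in which the fitted levels of all 8 factors were lower, markers of red cells and vessels were examined as well. By edgeR 0 of 5 red cell genes and 0 of 7 endothelial genes passed the test. The red cell genes were all lower, with a median of -0.91 and 5 of 5 at an unadjusted p under 0.05, and DESeq2 called 0. Their summed levels were 954.8 to 2071 CPM in Plekhg5+/+ SOD1-G93A and 574.1 to 976.5 CPM in Plekhg5-/- SOD1-G93A cords, beside 698.5 to 1228 in Plekhg5+/+ and 574.6 to 697.2 CPM in Plekhg5-/- cords. The endothelial genes were all higher, with a median of 0.54 and 6 of 7 at an unadjusted p under 0.05, and 1 was called when only the genotypes compared were fitted, as well as 1 by DESeq2 without and 2 with a prior. Their sums were 129.6 to 156.6 CPM in Plekhg5+/+ SOD1-G93A and 178.6 to 232.7 CPM in Plekhg5-/- SOD1-G93A cords, beside 169.3 to 188.2 in Plekhg5+/+ and 116.7 to 206.7 CPM in Plekhg5-/- cords. In none of the lists of other cells in this paragraph and the one before was a marker at 0 in every library of a genotype, and their part in the levels of the factors was not tested.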

How the data were processed

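Poly-A RNA of 12 spinal cords was sequenced by the authors as single-end reads, trimmed with Cutadapt 2.4, mapped with STAR 2.7.2b to GRCm38.p6 and the human SOD1 cDNA, and counted by strand on RefSeq exons with featureCounts 1.6.4. Reads with several matches or on overlapping genes were counted as fractions, so the deposited values are expected counts per gene, without normalization. The 12 columns were matched to samples by name, with 0 columns left over. Values were rounded, and no libraries were identical (chi-square per degree of freedom of 5.68 to 27.5 between replicates). Nothing in the labels says more of the replicates than separate samples, and p-values measure their spread.

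Genes were filtered with filterByExpr and tested with edgeR 4.0.16 (R 4.3.3; robust quasi-likelihood fit of the 4 genotypes, TMM) in 5 comparisons, with Benjamini-Hochberg adjustment over all 20155 genes and a threshold of 0.05. Log2 CPM used a prior count of 2. For relative levels, exact permutation tests (two-sided) were used. Libraries with over 1000 counts of Ddx3y, Eif2s3y, Kdm5d and Uty together were regarded as holding Y-linked transcripts. Alternatives were DESeq2 1.42.0 with and without a prior, its size factors, no filter, only the genotypes compared, a replicate block, Y-linked transcripts as a covariate or selection, a threshold of 0.1 and each library left out, for relative levels also a prior count of 0.5 and the geometric mean. Voom with sample quality weights (limma 3.58.1) and the alternatives for gene lists were added after seeing the data. The model was tested on simulated data.

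The factors and lists were chosen with earlier results of these data known. Named genes are the 8 factors, the 3 genes most correlated with each, and in each list up to 3 called genes with the largest change in each direction or, where none was called, up to 3 with the smallest p.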

Additional observations from a re-analysis of the deposited data

How the results depend on the processing

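In Plekhg5+/+ SOD1-G93A against Plekhg5+/+ cords, 4 factors were called, and 0 when only the genotypes compared were fitted. Leaving out each library gave between 0 (without the first or the second Plekhg5+/+ library) and 5 called factors. In Plekhg5-/- SOD1-G93A against Plekhg5+/+ SOD1-G93A cords, DESeq2 called 1 factor (Irf8) without and 1 with a prior, in place of 0. The other 104 counts of called factors were within 1.5 times of those reported. Counts that stayed at 0 are included, and in all comparisons but the first the reported count was 0. The number 104 thus says little about the 4 calls of the first comparison. No called log2 fold change turned its sign. The same 4 factors were called with no filter on low counts, with DESeq2's size factors, with Y-linked transcripts as a covariate, in the libraries with Y-linked transcripts alone and with sample quality weights. The first comparison called 498 genes, but 1175 and 1205 with DESeq2, 3 with only the genotypes compared, 107 in libraries with Y-linked transcripts, 1145 at a threshold of 0.1, 282 with quality weights and 2 to 771 with a library left out. Plekhg5 loss in SOD1-G93A cords called 7 genes, but 72 and 113 with DESeq2, 11 with only the genotypes compared, 0 in libraries with Y-linked transcripts and 4 to 8 with a library left out. For Plekhg5-/- against Plekhg5+/+ cords (6 genes) these were 36 and 34 with DESeq2, 2 in libraries with Y-linked transcripts and 5 to 59. For the transgene on the Plekhg5-/- background (1 gene) they were 44 and 42 with DESeq2, 20 with only the genotypes compared, 9 with quality weights and 1 to 9. For the interaction (0 genes) they were 1 with no filter, 98 and 111 with DESeq2 and 0 to 40. The causes were not tested.

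The number of factors whose relative levels did not overlap was 3, 2, 2 and 1 in the comparisons of the transgene, of Plekhg5 loss with it, of Plekhg5 loss alone and of the transgene without Plekhg5. With a library left out it was 3 to 4, 2 to 5, 2 to 6 and 1 to 3, and with the geometric mean it was 3 in the last. The share of all genes without overlap on this scale was not computed. In the first comparison the pan-microglial sums themselves did not overlap, so these counts cannot be read as particular to the factors. Same-numbered libraries deviated together (correlation above 0.1) in 5 of 18 pairs, with a range from -0.16 to 0.32. The highest values were between first libraries, with 0.32 for Plekhg5+/+ and Plekhg5-/- and 0.30 for Plekhg5+/+ SOD1-G93A and Plekhg5-/- SOD1-G93A. Differently numbered libraries were not compared, so these values cannot decide whether the numbers pair the mice. With the replicate number as a block, 5 factors were called in the first comparison, with Runx1 added (log2 fold change 1.11, adjusted p of 0.0281 by edgeR), 0 in each of the other comparisons, and 631 genes in the first. With 3 libraries per genotype and levels of Runx1 under 2 CPM in Plekhg5+/+ cords, small differences of this gene were not detectable.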
